A study of Homo sapiens with 4 samples.

Results

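The aminoacyl-tRNA synthetases, with the scaffold proteins that hold some of them together, were examined in H1299 cells, a line of human non-small-cell lung carcinoma, after exposure to mercury chloride. The members were taken by gene symbol. They are 20 genes for cytosolic enzymes, 17 for mitochondrial enzymes (the genes ending in ARS2) and 3 for the scaffold proteins AIMP1, AIMP2 and EEF1E1, 40 of the 61193 genes in the deposited table. The table lists 498 transcripts of these genes among 227368 in all. Poly-A RNA was sequenced from cells kept for 48 h with 5 μM HgCl2 or with 0.6% EtOH, the control, and each group has 2 columns. The treatment note in the labels names HgCl2 for all samples, so the groups follow the sample titles. All groups share the same line, and neither group carries another agent or an altered gene according to the labels.

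Each synthetase joins 1 amino acid to its own tRNA, which the ribosome then uses to read the code. The cytosol and the mitochondria each need a set of these enzymes, and most mitochondrial ones have nuclear genes of their own. GARS1 and KARS1 serve both compartments from the same gene. In the cytosol, several synthetases sit in the multi-synthetase complex around the 3 scaffold proteins, while the rest act as free enzymes. Many cytosolic synthetase genes are known targets of ATF4, the transcription factor of the amino acid response, which cells use when amino acids run short or under stress.

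The columns within a group were apart by less than the sampling noise of separate libraries. The variance of their difference was 0.505 of that of independent counts in EtOH and 0.516 in HgCl2, and 31.8 between the groups. Over synthetase transcripts alone it was 0.450 and 0.427. Each group was therefore counted as 1 sample. No difference below has a replicate check, no p-value is given, and every interval is a 95% Clopper-Pearson interval that covers counting error only. The columns hold between 4720978 and 5053120 counts. Of the markers of the line, VIM had 506 to 624 mean counts per group and KRT18 23.5 to 24.5, while KRT8 went from 55.5 to 4 and AKR1B10 was at 0. Of 7 markers of leukocytes, endothelium and fibroblasts, 4 were at 0 in every column and the summed mean counts of all 7 were 20.5 in EtOH and 5 in HgCl2. Their part in the results was not tested.

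In HgCl2, NARS1, FARSB and the scaffold EEF1E1 each had 1.57 to 1.67 times the scaled counts of EtOH, and AARS1 had 0.577 times. EPRS1 and the large mitochondrial genes IARS2, RARS2 and MARS2 stayed between 0.948 and 1.13 times their EtOH level. Several retained-intron transcripts of MARS1, YARS1, TARS1 and RARS1 were 2.40 to 9.53 times higher. Among mitochondrial genes with fewer counts, LARS2, CARS2 and HARS2 were at least 2-fold lower, HARS2 not with DESeq2 size factors, and YARS2 was higher. Over all genes, those with 10 to 30 counts were lower as a class, with a median log2 fold change of -0.69 and 41.4% at least 2-fold lower. Genes from 1000 counts on had a median of 0.25.

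Stretches of 6 introns are shown first, because the retained-intron transcripts past 2-fold with at least 30 counts keep these bases. They are intron in the canonical coding transcript of the gene, and the retained-intron transcripts also lack most of its exons. A retained intron is a stretch that splicing normally removes and that an annotated transcript keeps. The stretches were read from GRCh38 with GENCODE 44, and each is given 5′ to 3′ on the strand of its gene, in lower case. The capitals mark the donor GT or the acceptor AG where the stretch holds that end of the intron.
MARS1 intron 4 (ENST00000551842), chr12:57489559-57489783, plus strand: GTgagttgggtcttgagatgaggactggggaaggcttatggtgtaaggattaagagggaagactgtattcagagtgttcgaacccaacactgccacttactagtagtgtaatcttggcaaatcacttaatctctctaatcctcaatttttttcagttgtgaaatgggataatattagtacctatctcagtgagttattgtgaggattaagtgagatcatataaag
MARS1 intron 14 (ENST00000548630), chr12:57512354-57512464, plus strand: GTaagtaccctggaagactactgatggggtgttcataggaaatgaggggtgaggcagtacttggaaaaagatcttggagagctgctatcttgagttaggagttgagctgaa
MARS1 intron 18 (ENST00000551805), chr12:57515337-57515493, plus strand: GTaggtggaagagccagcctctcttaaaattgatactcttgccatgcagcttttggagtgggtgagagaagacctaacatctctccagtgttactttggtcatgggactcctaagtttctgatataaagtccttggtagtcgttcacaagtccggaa
TARS1 intron 11 (ENST00000504698), chr5:33459862-33459969, plus strand: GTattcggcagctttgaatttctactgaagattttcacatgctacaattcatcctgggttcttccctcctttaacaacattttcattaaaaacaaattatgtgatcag
RARS1 intron 6 (ENST00000518757), chr5:168497012-168497227, plus strand: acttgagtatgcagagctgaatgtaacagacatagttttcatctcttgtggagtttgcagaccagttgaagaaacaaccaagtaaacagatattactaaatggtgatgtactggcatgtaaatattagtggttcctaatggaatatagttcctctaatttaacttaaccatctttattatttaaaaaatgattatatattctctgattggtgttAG
YARS1 intron 11 (ENST00000490826), chr1:32779935-32780084, minus strand: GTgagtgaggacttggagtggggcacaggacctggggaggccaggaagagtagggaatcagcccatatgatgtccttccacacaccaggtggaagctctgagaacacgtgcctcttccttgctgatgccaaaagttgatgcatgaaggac
The YARS1 stretch is the first 150 of 561 bases of intron 11, which this transcript keeps whole. The MARS1 and TARS1 transcripts end inside their introns, so these 4 stretches hold a donor and no acceptor. RARS1 ENST00000518757 starts inside intron 6 and holds its acceptor.

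MARS1 is the cytosolic methionyl-tRNA synthetase, a member of the multi-synthetase complex. ENST00000551842, which carries the 225 bases of intron 4 shown above, had 3 and 5 counts in EtOH and 34 and 35 in HgCl2. The transcript was 9.53-fold higher in HgCl2 (3.40 to 36.9), a log2 fold change of 3.21. ENST00000551805, with 157 bases of intron 18, had 32 and 19 counts in EtOH and 82 and 84 in HgCl2, 3.60-fold higher (2.28 to 5.84). ENST00000548630, with 111 bases of intron 14, had 23 and 17 counts against 49 and 38, 2.40-fold higher (1.38 to 4.31). In all 3 transcripts both HgCl2 columns exceeded both EtOH columns. The columns of a group count as 1 sample and these transcripts were chosen past 2-fold, so this adds no support. The most counted MARS1 transcript, ENST00000548202, keeps the other end of intron 14. It had 88 and 94 counts in EtOH and 115 and 127 in HgCl2, a log2 fold change of 0.55. The canonical coding transcript of MARS1, ENST00000262027, was at 0 in all columns, so none of these values measures the spliced message. Over the gene, the counts of MARS1 went from 176 and 162 to 286 and 295, a log2 fold change of 0.92 (0.65 to 1.21).

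YARS1, the cytosolic tyrosyl enzyme, was counted on retained-intron transcripts alone. ENST00000490826, which keeps intron 11 and part of intron 10, had 6 and 9 counts in EtOH and 56 and 61 in HgCl2, 8.62-fold higher (4.02 to 21.6). ENST00000478828, the most counted one, had 69 and 75 against 101 and 105, a log2 fold change of 0.66. The 2 transcripts of the same gene thus differed widely in fold, and both intervals lay above no change. All YARS1 counts together gave 111 and 126 in EtOH and 202 and 212 in HgCl2, a log2 fold change of 0.95 (0.62 to 1.29).

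TARS1 charges tRNA with threonine. Its transcript ENST00000504698, with the 108 bases of intron 11, had 5 and 11 counts in EtOH and 47 and 48 in HgCl2, 6.56-fold higher (3.07 to 16.1). Its canonical coding transcript, ENST00000265112, stood the other way at a low level, with 8 and 9 counts in EtOH and 1 and 2 in HgCl2. The TARS1 sum of 25 and 38 against 61 and 63 counts therefore rests on the retained intron. RARS1, the arginyl enzyme of the complex, gave 22 and 24 counts in EtOH and 55 and 61 in HgCl2 on ENST00000518757, 2.79-fold higher (1.69 to 4.73). Other RARS1 transcripts differed from that, since ENST00000524082 had 44 and 40 against 49 and 46 counts, and the coding transcript ENST00000231572 had 16 and 13 against 7 and 6. In RARS1 the transcript that starts in intron 6 was thus past 2-fold, while the summed log2 fold change was 0.38 (-0.01 to 0.76). Of the summed counts 90.9% lay on retained introns. The interval of ENST00000524082, 0.81-fold to 1.94-fold, overlaps that of ENST00000518757, and the difference between them was not tested.

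**Figure D1:**
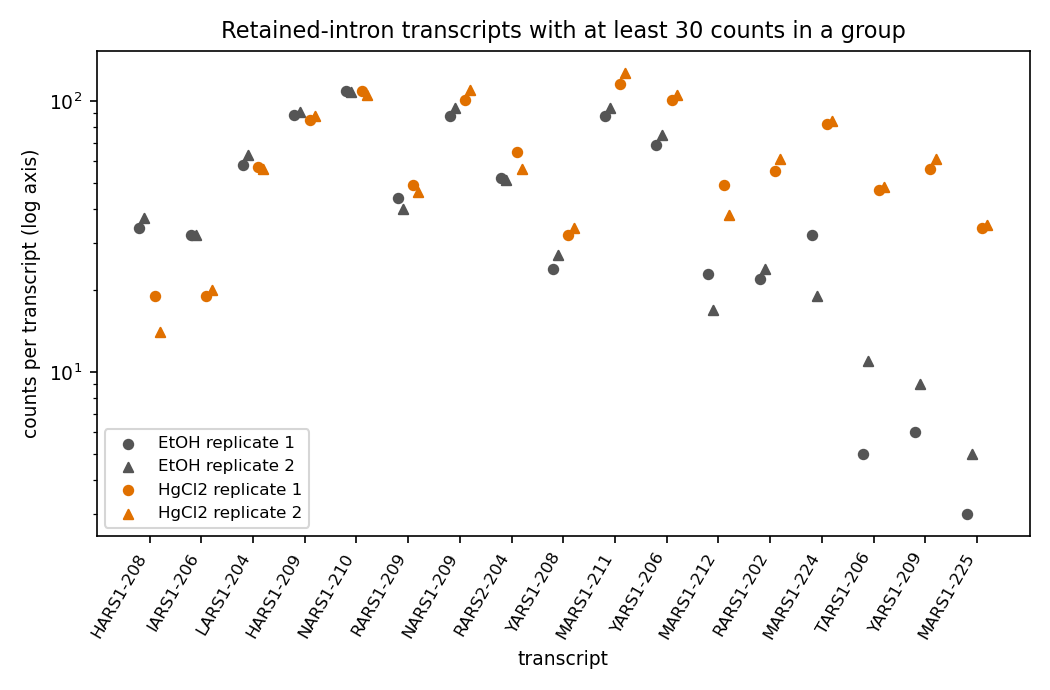
Counts per transcript (log axis) for the 17 retained-intron transcripts of synthetase genes with a mean of at least 30 counts in a group, named as in GENCODE 44 and ordered by log2 fold change; grey marks are the 2 EtOH columns and orange marks the 2 HgCl2 columns. The 6 on the right, from MARS1-212 to MARS1-225, are at least 2-fold higher in HgCl2, and the 2 on the left are lower by less than 2-fold.

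Retained introns as a class set the background for these folds. Of the 17 retained-intron transcripts of synthetase genes with at least 30 counts in a group, 6 were at least 2-fold higher and 0 at least 2-fold lower. Over all 1481 retained introns at that count, 39.5% were at least 2-fold higher and 11.1% lower, so 6 of 17 is near the share of all retained introns. The median log2 fold change was 0.51 for the synthetase introns and 0.70 for all. Above 0 were 15 of the 17. The 2 below 0 were ENST00000504366 of HARS1, the histidyl enzyme, with 34 and 37 counts in EtOH and 19 and 14 in HgCl2, and ENST00000472894 of IARS1, the isoleucyl enzyme, with 32 and 32 against 19 and 20. The most counted HARS1 transcript, ENST00000506579, had 89 and 91 against 85 and 88, a log2 fold change of 0.09 (-0.36 to 0.53).

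The best counted members are coding transcripts, and 12 canonical coding transcripts had a mean of at least 30 counts in a group. Levels between genes are compared here as counts per kb of bases that no other listed transcript covers. All counts of a transcript are divided by these bases, so the order is uncertain where reads also fell on shared bases. On that scale NARS1 led with 6988 in EtOH and 9935 in HgCl2, ahead of EPRS1 with 2937 and 2634, EEF1E1 with 1897 and 2876, IARS2 with 1739 and 1514 and FARSB with 298 and 424. EEF1E1 and EPRS1 changed places between the groups on this scale, but not on the deposited FPKM. There EEF1E1 had 203 and 216 in EtOH, where EPRS1 had 132 and 131. In HgCl2 EEF1E1 had 404 and 391, where EPRS1 had 146 and 148. IARS2, below both in EtOH on the scale per kb, was above both there on FPKM, with 227 and 221. AARS1, LARS1 and RARS2 have no value on the scale per kb, which needs a unique stretch of at least 150 bases.

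NARS1, the asparaginyl-tRNA synthetase, acts as a free cytosolic enzyme and took the most counts of any member. Its coding transcript ENST00000256854 (chr18:57600656-57621836, GRCh38) had 4774 and 4828 counts in EtOH and 6839 and 6812 in HgCl2, 1.57-fold higher (1.51 to 1.63). FARSB encodes the beta subunit of phenylalanyl-tRNA synthetase, and ENST00000281828 (chr2:222566899-222656092) went from 1703 and 1688 to 2458 and 2364, also 1.57-fold (1.48 to 1.67). FARSA, its partner subunit, was at 0 in every column, so the subunits of that enzyme cannot be compared. In both NARS1 and FARSB the interval lay above no change, with a fold below 2 and a log2 fold change of 0.65. Well-counted transcripts as a class were also higher. Percentiles 10 to 90 of all compared transcripts span -0.13 to 0.68 at a mean of 4096 to 8192 counts, the level of NARS1. They span -0.16 to 0.70 at 2048 to 4096 counts, the level of FARSB. Both values lie within the span at their level.

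AARS1, the alanyl enzyme, moved the other way. ENST00000261772 (chr16:70252298-70289506) had 1060 and 1113 counts in EtOH and 569 and 567 in HgCl2, 0.577-fold (0.521 to 0.640). LARS1, the leucyl enzyme of the complex, had 756 and 778 against 543 and 564 counts on ENST00000394434 (chr5:146113034-146182650), 0.797-fold (0.713 to 0.890). Both intervals lay below no change. Only 9 bases of the AARS1 transcript and 0 of the LARS1 transcript are free of other transcripts in GENCODE 44, a later annotation than the one used for counting. The same limit holds for RARS2 ENST00000369536, with 10 such bases, and YARS1 ENST00000478828, with 0. How far that bears on the counts of these transcripts was not tested.

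EPRS1 joins glutamyl and prolyl activity in 1 protein of the complex. Its transcript ENST00000366923 (chr1:219968600-220046505) had 3516 and 3492 counts in EtOH and 3129 and 3155 in HgCl2, a log2 fold change of -0.01 (-0.08 to 0.06) that became 0.16 with DESeq2 size factors. Its columns lie close together, and its direction does not hold under every setting. SARS1, the free seryl enzyme, was counted on short non-coding transcripts. The most counted, ENST00000468588, had 41 and 36 counts against 73 and 84, a log2 fold change of 1.17 that fell to 0.99 when every column had to hold 10 counts.

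The scaffold genes differed from each other. EEF1E1, also called AIMP3, had 1170 and 1243 counts in EtOH and 1858 and 1800 in HgCl2 on ENST00000379715 (chr6:8079395-8102548), 1.67-fold higher (1.56 to 1.80). AIMP1, whose cleaved form is a known cytokine, had 232 and 223 against 205 and 213 counts on ENST00000672328 (chr4:106316578-106347756), a log2 fold change of 0.02 (-0.26 to 0.30) whose sign changed with the scaling. AIMP2 had 9 and 10 summed counts in EtOH and 3 and 2 in HgCl2. Thus EEF1E1 alone of the 3 had an interval above no change.

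**Figure D2:**
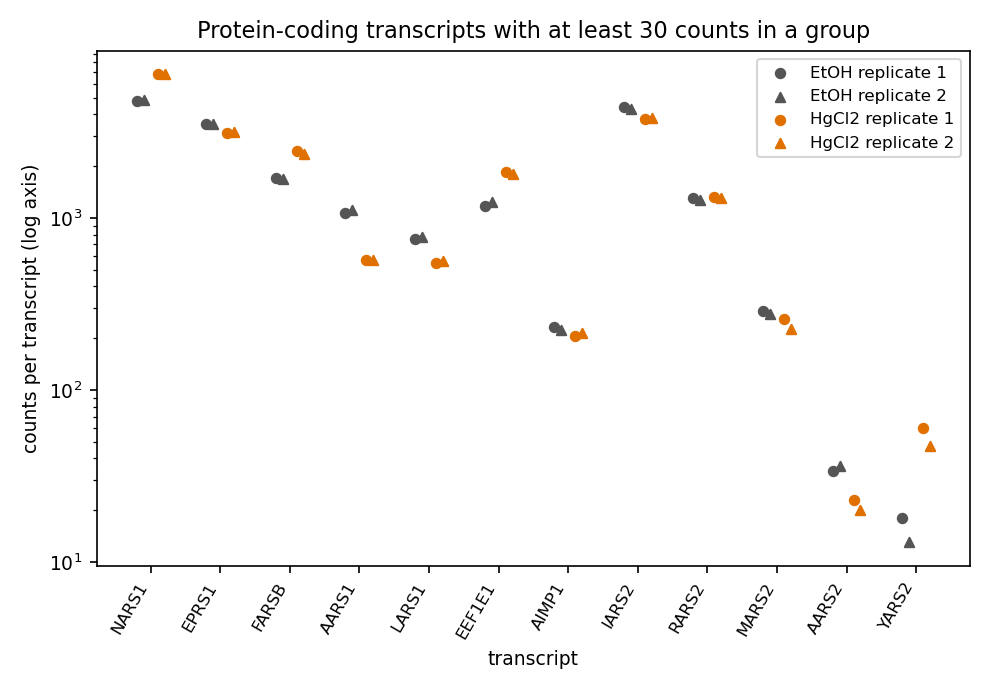
Counts per transcript (log axis) of 12 protein-coding transcripts of synthetase and scaffold genes with a mean of at least 30 counts in a group; grey marks are the 2 EtOH columns, orange marks the 2 HgCl2 columns, and cytosolic enzymes, scaffolds and mitochondrial enzymes follow each other from left to right. NARS1, FARSB, EEF1E1 and YARS2 are higher in HgCl2, AARS1, LARS1 and AARS2 lower, and the columns within each group nearly coincide except at YARS2.

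Of all 13 coding transcripts of the members at that count, 1 (YARS2) was at least 2-fold higher and 0 at least 2-fold lower. Over all 4566 protein-coding transcripts, 12% were at least 2-fold higher and 11.3% lower. The median log2 fold change was 0.02 for the synthetase transcripts and 0.14 for all.

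Among the mitochondrial enzymes, IARS2 held most of the counts, with 70.1% of them in EtOH and 68.3% in HgCl2. This isoleucyl enzyme had 4408 and 4282 counts in EtOH and 3756 and 3808 in HgCl2 on ENST00000366922 (chr1:220094132-220148041), a log2 fold change of -0.06 (-0.12 to 0.01) that became 0.12 with DESeq2 size factors. RARS2, the arginyl enzyme, had 1297 and 1277 against 1323 and 1308 counts on ENST00000369536 (chr6:87513938-87589987), 1.13-fold (1.04 to 1.22). MARS2, the methionyl enzyme, is a gene with 1 exon and had 287 and 276 against 258 and 225 counts on ENST00000282276 (chr2:197705369-197708395), with an interval of -0.33 to 0.18 on the log2 scale. The 3 best counted mitochondrial genes thus had log2 fold changes between -0.08 and 0.18.

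YARS2, the mitochondrial tyrosyl enzyme, stood apart from them. Its coding transcript ENST00000324868 (chr12:32746544-32755897) had 18 and 13 counts in EtOH and 60 and 47 in HgCl2, 3.81-fold higher (2.13 to 7.21). The other mitochondrial genes past 2-fold were lower. LARS2, for leucine, had 13 and 19 summed counts in EtOH and 1 and 1 in HgCl2, a ratio of 0.0690 (0.00165 to 0.444). CARS2, for cysteine, had 16 and 20 against 2 and 2, a ratio of 0.123 (0.0138 to 0.513). The canonical coding transcripts of LARS2 and CARS2 were at 0 in every column. No LARS2 transcript passed the FPKM filter, and 77.5% of the CARS2 counts lay on retained introns. HARS2, for histidine, went from 77 and 68 to 32 and 30, a ratio of 0.472 (0.300 to 0.729), and most of its counts lay on ENST00000510104, which the annotation classes under nonsense-mediated decay, with 63 and 59 against 30 and 29. PARS2 and AARS2, for proline and alanine, are counted on their coding transcripts, and both were lower by less than 2-fold: PARS2 had 29 and 27 against 16 and 12 counts and AARS2 34 and 36 against 23 and 20. The intervals of both ratios include 1.

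**Figure D3:**
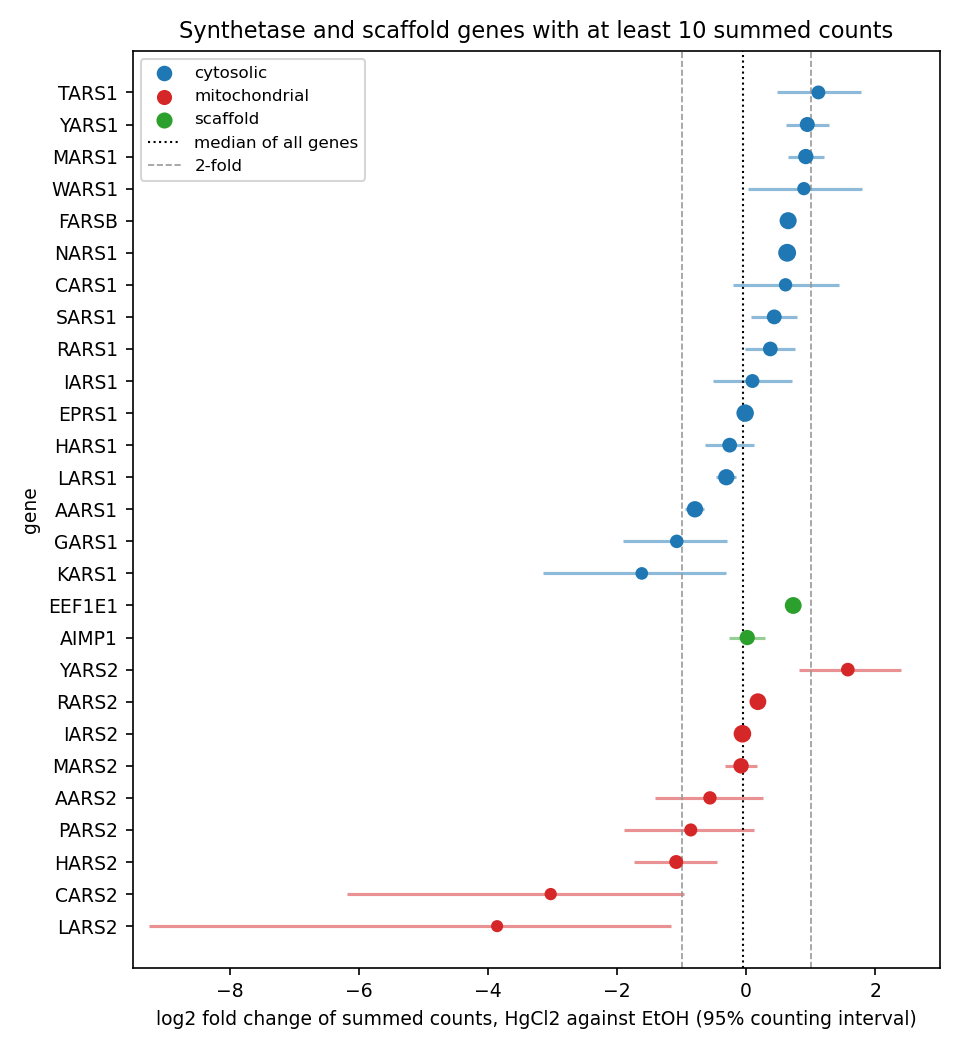
Log2 fold change of the counts summed over all transcripts of a gene, HgCl2 against EtOH, for 27 synthetase and scaffold genes with a mean of at least 10 summed counts in a group; bars are 95% counting intervals, larger points have more counts, dashed lines mark 2-fold and the dotted line is the median of all genes. Cytosolic genes spread from KARS1 at -1.62 to TARS1 at 1.12, and 7 of the 9 mitochondrial genes drawn lie below 0.

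Counts were also summed per gene, and 29 of the 40 genes had a mean of at least 10 in a group. Of these, 2 were at least 2-fold higher (TARS1 and YARS2) and 6 at least 2-fold lower, among them KARS1, GARS1, LARS2, CARS2 and HARS2. Over all 10382 genes at that level, 14.1% were at least 2-fold higher and 25.2% lower, beside 6.90% and 20.7% of the 29. With DESeq2 size factors 5 of the 29 were higher and 4 lower. Neither share is therefore read as a difference from all genes. KARS1, for lysine, had 23 and 21 counts against 7 and 6, a log2 fold change of -1.62 (-3.14 to -0.31). GARS1, for glycine, had 48 and 45 against 22 and 18, a log2 fold change of -1.07 (-1.91 to -0.29). GARS1 and HARS2 came within 2-fold with DESeq2 size factors, both at -0.90. Of the GARS1 counts 85.0% lay on retained introns and 4.51% on coding transcripts, and the canonical coding transcript of KARS1 was at 0. The 11 genes below 10 counts were FARSA and FARS2, at 0 throughout, and QARS1, VARS1, SARS2, VARS2, EARS2, TARS2, NARS2, WARS2 and AIMP2, with 0 to 10 summed counts per column. Depth does not allow a direction to be read for these.

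Other cytosolic genes lay within 2-fold. WARS1, the tryptophanyl enzyme, had 22 and 16 counts in EtOH and 34 and 30 in HgCl2, a log2 fold change of 0.90 (0.03 to 1.80). SARS1 had 123 and 117 against 143 and 151, 1.35-fold (1.06 to 1.74). CARS1, for cysteine, IARS1, for isoleucine, and HARS1 had intervals that include no change, with log2 fold changes of 0.61, 0.10 and -0.25. In IARS1 the fitted values differed in sign: ENST00000490438 had 5 and 7 counts against 23 and 18, and ENST00000472894 had 32 and 32 against 19 and 20. The interval of the latter, -1.46 to 0.29 on the log2 scale, includes no change.

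The order of the compartments depended on which transcripts were counted. Over all transcripts of a gene, the median log2 fold change was 0.38 over 17 cytosolic genes and -0.71 over 10 mitochondrial genes, beside -0.05 over all genes. Above 0 were 11 of the 17 cytosolic and 2 of the 10 mitochondrial genes. Folds also moved with the level, since over all genes the median was -0.69 at a mean of 10 to 30 counts, 0.04 at 30 to 100 and 0.25 from 1000 counts on. With at least 50 summed counts the mitochondrial median was -0.06 over 5 genes and the cytosolic median 0.41 over 12, so their order stayed. With protein-coding transcripts alone the medians were close and their order turned round, at -0.17 over 8 cytosolic genes and -0.08 over 7 mitochondrial genes. Within the cytosolic set, the 10 free enzymes had a median of 0.62 and the 9 complex genes, scaffolds included, 0.10. By structural class of the catalytic domain, the median was 0.61 over 7 cytosolic class I genes and 0.16 over 9 of class II, and -0.07 over 6 mitochondrial class I genes and -0.97 over 4 of class II.

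Summed over genes, the cytosolic enzymes had a log2 fold change of 0.32 (0.29 to 0.36), the scaffolds 0.63 (0.53 to 0.73) and the mitochondrial enzymes -0.02 (-0.07 to 0.03). These sums weigh genes by their counts and do not describe each gene. NARS1 alone held 35.3% of the cytosolic counts in EtOH and 43.9% in HgCl2. EEF1E1 held a mean of 1223.5 of the 1461 scaffold counts in EtOH and 1837.5 of 2049 in HgCl2. The mitochondrial share of synthetase counts, which needs no scaling between libraries, was 30.8% and 30.02% for EtOH and 25.6% and 25.7% for HgCl2, column by column. Over the groups it was 30.4% (29.8 to 31.0) and 25.7% (25.1 to 26.2). A few genes carried this share: without NARS1 it was 40.3% and 38.1%, and without IARS2 and RARS2 3.48% and 2.32%. The share was lower in HgCl2 in each case. With protein-coding transcripts alone the difference in share, HgCl2 less EtOH, was -4.50 points.

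By transcript, 69 of the 498 synthetase and scaffold transcripts, from 28 genes, had a mean FPKM above 1 in a group. Of these 15 were at least 2-fold higher and 18 at least 2-fold lower, beside 19.2% higher and 34.1% lower over all 17547 transcripts compared. The cytosolic genes gave 13 higher and 11 lower of 50 transcripts, the mitochondrial genes 1 and 5 of 14, and the scaffolds 1 and 2 of 5. The lower ones were thin: at 30 or more counts in a group, 8 of 34 members were at least 2-fold higher and 0 lower, against 21.3% and 13.2% of all 8545 transcripts. Of 82 member transcripts with a mean over 3 counts in a group, 5 had them in EtOH and were at 0 in HgCl2, and 0 the reverse, beside 8.71% and 1.68% of all 21485 such transcripts.

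**Figure D4:**
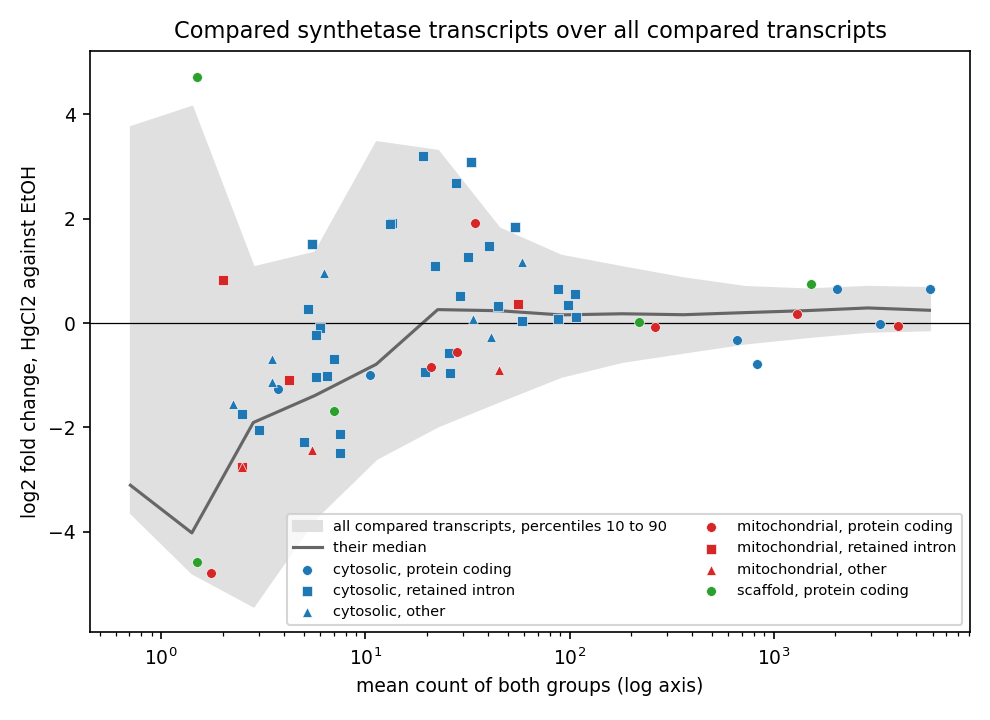
Log2 fold change of 65 compared synthetase and scaffold transcripts against their mean count (log axis), over the median (line) and the span from percentile 10 to 90 (grey) of all compared transcripts; colours give the compartment and shapes the transcript class. Retained introns of cytosolic genes spread widely below 100 counts, and above 1000 counts members lie between -0.06 and 0.74. AARS1 lies under the grey span.

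The counts show some genes by only part of their transcripts. The canonical coding transcript was in the table for 39 genes and at 0 in every column for 18, among them MARS1, YARS1, HARS1, IARS1, SARS1, WARS1 and QARS1. Of these 18 transcripts, 13 have no base that is free of other transcripts in GENCODE 44, and the median was 0 such bases, against 940 for the 12 with at least 30 counts. Pseudogenes of the members took few counts: of 17, EEF1E1P1 had 23 and 30 counts in EtOH and 7 and 3 in HgCl2, and 2 others had at most 2 per column.

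The promoters of the members were searched for the core of the amino acid response element that ATF4 is known to bind, TGATGNAA, on both strands. RefSeq promoters on GRCh38.p14, from 250 bases before to 50 after each start, were matched for 33 of the 40 genes. The core was in 7 of 21 promoters of cytosolic genes (33.3%), in 1 of 18 of mitochondrial genes (5.56%) and in 0 of 6 of scaffold genes, beside 3.62% of all 35116 promoters. The genes were AARS1, CARS1, GARS1, IARS1, MARS1, NARS1, TARS1 and YARS2. The stretch around each core is shown, so that its place and neighbouring bases can be compared, 5′ to 3′ on the strand of the gene, with the core or its reverse complement in capitals.
NARS1 promoter, chr18:57621812-57621862, minus strand: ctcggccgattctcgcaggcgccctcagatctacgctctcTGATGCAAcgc
MARS1 promoter, chr12:57488024-57488092, plus strand: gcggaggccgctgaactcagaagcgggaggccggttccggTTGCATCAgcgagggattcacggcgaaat
TARS1 promoter, chr5:33440927-33440989, plus strand: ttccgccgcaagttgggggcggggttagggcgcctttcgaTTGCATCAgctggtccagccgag
CARS1 promoter, chr11:3057399-3057465, minus strand: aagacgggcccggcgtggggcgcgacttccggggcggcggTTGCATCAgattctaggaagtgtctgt
IARS1 promoter, chr9:92293673-92293750, minus strand: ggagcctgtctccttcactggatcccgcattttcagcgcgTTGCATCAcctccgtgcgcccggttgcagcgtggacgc
AARS1 promoter, chr16:70289646-70289733, minus strand: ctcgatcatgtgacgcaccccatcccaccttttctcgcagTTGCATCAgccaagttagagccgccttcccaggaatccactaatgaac
GARS1 promoter, chr7:30594805-30594892, plus strand: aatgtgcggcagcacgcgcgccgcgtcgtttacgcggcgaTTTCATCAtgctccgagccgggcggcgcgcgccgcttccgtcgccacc
YARS2 promoter, chr12:32756047-32756134, minus strand: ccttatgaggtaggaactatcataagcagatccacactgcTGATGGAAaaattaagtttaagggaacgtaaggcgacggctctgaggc
By summed counts these genes did not share a direction: NARS1, MARS1, TARS1 and YARS2 were higher in HgCl2, and AARS1 and GARS1 lower. CARS1 and IARS1, with log2 fold changes of 0.61 and 0.10, had intervals that include no change. The sums of MARS1, TARS1, GARS1, CARS1 and IARS1 lay mostly on retained introns, so they do not measure the spliced message. The canonical coding transcript of TARS1 stood the other way at a low level. A match of letters is a description and does not show a factor at the site.

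Genes that work beside the synthetases were read from lists. Of 11 partners of charging with at least 10 summed counts, such as amidotransferase subunits and editing enzymes, 2 were at least 2-fold higher and 4 lower, where 14.1% and 25.2% of all genes were. DTD1, which removes D-amino acids from tRNA, had 48 and 44 counts against 91 and 83, and MTFMT, which formylates the mitochondrial initiator tRNA, 4 and 4 against 13 and 20. The lower ones were TARS3, a paralog of TARS1, with a log2 fold change of -1.72, AARSD1, an editing enzyme, with -1.50, GATB, an amidotransferase subunit, with -1.86, and PSTK, a kinase of selenocysteine tRNA charging, with -1.59. The interval of AARSD1, -3.58 to 0.21, includes no change. Of 11 genes of tRNA end processing and export, 1 was higher and 1 lower against the same background. XPOT, the exportin of tRNA, was below 2-fold but had 10697 and 10827 counts against 17933 and 17643, or 0.87 higher on the log2 scale (0.83 to 0.90). Of 4 genes that deliver tRNA to the ribosome, 0 were higher and 1 was lower: TUFM, the mitochondrial elongation factor, had 12 and 11 counts in EtOH and 0 in HgCl2. Against a floor of 3 counts it was at least 3.47-fold lower, and its counting interval reaches up to -1.26 on the log2 scale.

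The amino acid response itself was mixed. Of 10 of its genes with at least 10 counts, 3 were at least 2-fold higher and 2 lower, beside the 14.1% and 25.2% of all genes. ASNS, asparagine synthetase, had 277 and 278 counts in EtOH and 715 and 742 in HgCl2, a log2 fold change of 1.54 (1.33 to 1.74). ATF3 had 20 and 24 against 85 and 86, and PHGDH, the first enzyme of serine synthesis, 32 and 28 against 63 and 66. ATF4 was among the 2 lower, at a low level, with 19 and 17 counts against 2 and 0, a log2 fold change of -4.03 (-9.41 to -1.36). TRIB3 was lower by less than 2-fold, with 265 and 284 against 158 and 155, a log2 fold change of -0.67 (-0.96 to -0.38). ASNS and NARS1, the enzyme that makes asparagine and the one that charges it, were thus both higher in HgCl2, while TRIB3 and AARS1 were lower.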

How the data were processed

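RNA-seq of H1299 cells was read from whole-series tables with 2 columns per group, assigned by name. The authors made the deposited counts per transcript by trimming with Trim Galore, alignment with STAR 2.5.4b to GRCh38 (Ensembl 98) and counting with Rsubread. The paper calls the RNA-seq directional and names a TruSeq RNA kit, but the options of counting, strand included, are not given in the sources used here, so values of overlapping or antisense transcripts are uncertain. The authors computed the deposited FPKM with DESeq2 1.26.0, and it served here as a filter.

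Log2 fold changes per transcript come from edgeR 4.0.16 (glmQLFit with TMM, under R 4.3.3), fitted to the 17547 transcripts whose mean FPKM passed 1 in a group. Counts were also summed per gene with the same scaling, for genes with a mean of at least 10. At least 2-fold was the threshold, since each group counted as 1 sample; fitted tests were not used. Totals of 4720978 to 5053120 counts per column limit the precision of rare transcripts. Alternatives used DESeq2 1.42.0, other filters, log2(FPKM + 1) and left-out columns. GENCODE 44 gave names and coordinates, with 223558 of 227368 identifiers found. Scripts ran in Python 3.11.15 and were tested on simulated data. Named transcripts are the most counted one of each gene with at least 100 summed counts and those with at least 30 counts past 2-fold; the other members named were chosen after their values were seen. The members and lists were chosen with earlier results of these data known. Some members and markers that these rules cover are not reported or drawn here.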

Additional observations from a re-analysis of the deposited data

How the results depend on the processing

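The count of 33 synthetase and scaffold transcripts past 2-fold became 8 when every column had to hold 10 counts, 17 with the filterByExpr rule, 21 on log2(FPKM + 1), 82 with no filter and, chosen after seeing the data, 8 with at least 30 counts in a group; leaving out 1 column gave 32 to 34. The 8 genes past 2-fold became 3 with at least 50 summed counts, 13 with at least 1 count and 4 with protein-coding transcripts alone, and 7 to 9 without 1 column. With DESeq2 size factors, which raised all values by 0.18 on the log2 scale, 5 genes were higher and 4 lower. With protein-coding transcripts alone the cytosolic median was -0.17 over 8 genes and the mitochondrial median -0.08 over 7. The order of these close medians thus turned round, while the mitochondrial share still differed by -4.50 points. The cytosolic median was 0.31 to 0.44 without 1 column, and the mitochondrial median was -0.87 to -0.56 without 1 column. The difference in the mitochondrial share of -4.76 points was -6.43 points on transcripts with a unique stretch of at least 150 bases, chosen after seeing the data, and -5.15 to -4.37 without 1 column. The cause of these changes was not tested beyond the fewer or more features each filter keeps. Of calls over all transcripts, 36.0% were higher in the fit reported and 61.7% at 30 counts. The columns share replicate numbers, but same-numbered columns deviated together with r = 0.0318 over 8645 transcripts, and the fit with the replicate number as a block gave 33 transcripts past 2-fold.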
